A study of Mus musculus with 6 samples.

Results

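The loops described here are the longest contacts within a chromosome in promoter-capture Micro-C lists from mouse embryonic stem cells. Each joins a captured promoter fragment, the bait, to an unbaited window of at most 20 kb on the same chromosome, with midpoints at least 10 Mb apart. They were chosen from the 6 per-library loop lists by distance alone. Loops whose other end is itself a bait (47 listings of 10 Mb or more) and loops that end at 1 bait on chromosome 2 with very many listings (293 of 10 Mb or more) were left out. The rule found 1479 of the 107701 listed loops, which is 1.77% of the intrachromosomal loops, where a listing is a loop in the list of 1 library. By identical ends they were 1096 distinct loops on 705 of the 19070 baits, with 870 unbaited ends. The shortest spanned 10.02 Mb and the longest loop just under the limit spanned 9.93 Mb. The median span was 31.8 Mb (quartiles 16.6 and 53.3 Mb), 423 listings spanned more than 50 Mb, and the longest loop spanned 168.1 Mb.

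All cells were wild-type E14 mouse embryonic stem cells grown in serum and LIF, collected 48 h after a transient transfection with endoribonuclease-prepared siRNAs (esiRNAs). The 3 groups of 2 libraries were Brg1KD (esiRNAs against Smarca4, the gene for Brg1), Ino80KD (esiRNAs against Ino80) and Control (esiRNAs against EGFP). By the labels, every first replicate was in batch 1, the second Brg1KD and Ino80KD replicates were in batch 3 and the second Control replicate was in batch 2. The files hold no expression values, so neither the depletions nor the cell type could be checked against marker genes here, and the labels do not say whether replicates were separate cultures, so any p-value may measure technical spread.

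Brg1 is the ATPase of the BAF (SWI/SNF) chromatin remodelling complexes and Ino80 that of the INO80 complex. Both complexes use ATP to move, evict or exchange nucleosomes, and Brg1 is needed for self-renewal of embryonic stem cells. Contact frequency between loci of a chromosome falls steeply with distance, so that very long loops are rare in promoter-capture data. In mouse embryonic stem cells, long-range contacts are known among developmental genes that carry Polycomb complexes, with the Hox clusters as the best-known case.

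The promoters of 7 baits that the results return to are printed here from RefSeq (GRCm38.p6), 5′ to 3′ on the gene's strand, from 250 bases before to 50 bases after the start. Capitals mark CG dinucleotides, searched as the letters CG. Cd207 and Clec4f stand for the chromosome 6 locus pair with the most listings, Mroh2a and Hjurp for the chromosome 1 locus pair, Kars for the isolated recurrent loops, and Hoxa10 and Evx2 for the developmental genes.
Cd207 (chr6:83677808-83678107, minus strand): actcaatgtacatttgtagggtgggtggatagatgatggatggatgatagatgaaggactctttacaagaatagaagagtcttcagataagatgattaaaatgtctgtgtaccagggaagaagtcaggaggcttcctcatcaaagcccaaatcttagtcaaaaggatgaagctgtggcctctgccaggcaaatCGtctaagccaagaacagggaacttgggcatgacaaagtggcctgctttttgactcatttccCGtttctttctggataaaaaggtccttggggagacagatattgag
Clec4f (chr6:83656067-83656366, minus strand): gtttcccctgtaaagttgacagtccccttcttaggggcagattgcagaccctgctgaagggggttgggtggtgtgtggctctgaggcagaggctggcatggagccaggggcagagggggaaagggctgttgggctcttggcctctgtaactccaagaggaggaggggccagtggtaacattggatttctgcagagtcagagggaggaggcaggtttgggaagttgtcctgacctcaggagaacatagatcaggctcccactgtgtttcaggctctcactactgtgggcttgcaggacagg
Mroh2a (chr1:88226770-88227069, plus strand): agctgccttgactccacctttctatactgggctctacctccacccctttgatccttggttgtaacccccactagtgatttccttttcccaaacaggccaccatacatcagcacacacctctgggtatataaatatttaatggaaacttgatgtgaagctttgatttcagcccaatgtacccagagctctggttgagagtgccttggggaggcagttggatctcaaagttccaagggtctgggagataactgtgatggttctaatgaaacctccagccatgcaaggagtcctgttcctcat
Hjurp (chr1:88277530-88277829, minus strand): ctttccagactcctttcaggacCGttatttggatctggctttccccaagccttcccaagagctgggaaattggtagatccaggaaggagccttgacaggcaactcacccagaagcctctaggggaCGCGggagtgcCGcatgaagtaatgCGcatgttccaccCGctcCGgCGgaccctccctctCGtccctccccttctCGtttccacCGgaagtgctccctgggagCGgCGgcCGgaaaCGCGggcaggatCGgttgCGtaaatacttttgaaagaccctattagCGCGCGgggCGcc
Kars (chr8:112011305-112011604, minus strand): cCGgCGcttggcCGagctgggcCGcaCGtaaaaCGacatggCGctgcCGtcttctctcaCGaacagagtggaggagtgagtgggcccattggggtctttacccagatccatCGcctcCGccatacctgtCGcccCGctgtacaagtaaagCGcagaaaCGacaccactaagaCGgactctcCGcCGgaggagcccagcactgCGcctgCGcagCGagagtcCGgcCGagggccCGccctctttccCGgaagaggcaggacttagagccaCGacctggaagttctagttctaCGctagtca
Hoxa10 (chr6:52234890-52235189, minus strand): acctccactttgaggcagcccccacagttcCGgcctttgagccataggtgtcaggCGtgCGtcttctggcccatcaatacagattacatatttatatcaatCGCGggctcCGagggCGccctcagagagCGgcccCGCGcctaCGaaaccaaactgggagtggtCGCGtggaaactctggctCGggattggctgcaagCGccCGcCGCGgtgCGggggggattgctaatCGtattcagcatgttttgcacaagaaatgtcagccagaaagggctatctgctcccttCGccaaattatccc
Evx2 (chr2:74659508-74659807, minus strand): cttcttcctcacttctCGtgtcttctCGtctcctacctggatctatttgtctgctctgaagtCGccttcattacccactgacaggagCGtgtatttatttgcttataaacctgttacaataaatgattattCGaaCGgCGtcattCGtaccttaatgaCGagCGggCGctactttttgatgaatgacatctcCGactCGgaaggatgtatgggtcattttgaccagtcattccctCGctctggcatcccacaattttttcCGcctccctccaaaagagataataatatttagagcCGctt
They hold from 0 CG dinucleotides (Clec4f and Mroh2a) to 27 (Kars), against a median of 7 over the 32851 promoters in the RefSeq table. A RefSeq promoter overlapped 468 of the 705 baits with an extreme loop. Taking the promoter with the most CG on each bait, the median count over these baits was 16. It was 11 on the 1472 of 2203 baits of 1 to 10 Mb loops that had a promoter, and 12 over all baits with an intrachromosomal loop. These counts are a description, and baits with several extreme loops count once. A highest count per bait is not a like measure to the median of 7 over single promoters.

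Extreme loops were listed in every library, and the 3 groups overlapped. The Brg1KD libraries listed 105 and 263 of them, the Ino80KD libraries 244 and 262, and the Control libraries 230 and 375. Per 1000 intrachromosomal loops this was 8.57 and 20.3 in Brg1KD, 16.6 and 18.6 in Ino80KD, and 15.0 and 26.1 in Control. The lowest and the highest value belonged to the first Brg1KD library and the second Control library, and the remaining 4 lay between 15.0 and 20.3. Brg1KD averaged 14.4 ± 8.29 and Control 20.5 ± 7.81 extreme loops per 1000 (SD, n = 2 each), a difference of -6.10 with p = 0.667 and adjusted p = 1 in an exact two-sided permutation test over libraries. Ino80KD averaged 17.6 ± 1.37 (SD, n = 2), which was 2.94 below Control and 3.17 above Brg1KD, with p = 1 and adjusted p = 1 in the same exact test for both comparisons. With 2 libraries against 2 this test cannot give a p below 0.33. Within batch 1, Ino80KD was 1.62 per 1000 above Control and Brg1KD 6.44 below Control, and within batch 3 the difference of Ino80KD from Brg1KD was -1.73 per 1000, so the direction for Ino80KD turned in both cases. Within batch 1, Ino80KD was 8.06 per 1000 above Brg1KD. Loops of 1 to 10 Mb were also fewest in the first Brg1KD library, at 34 and 57.6 per 1000 in Brg1KD, 66.2 and 70.1 in Ino80KD, and 66.2 and 74.9 in Control. The lists give no read or contact counts per library, so sequencing depth is unknown, and its part in these numbers was not tested.

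**Figure D1:**
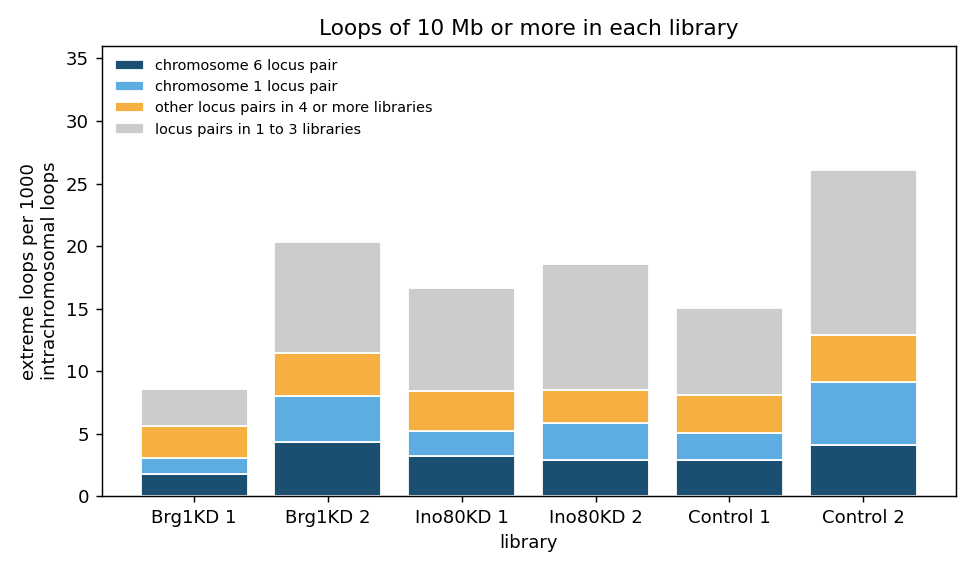
Extreme loops per 1000 intrachromosomal loops (vertical axis) in each of the 6 libraries (horizontal axis), stacked by how often their locus pair recurs. The first Brg1KD library is lowest at 8.57 and the second Control library highest at 26.1, and the chromosome 6 and chromosome 1 locus pairs are present in every bar.

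Most distinct loops were listed once, while a small number returned in library after library. By identical ends, 914 of the 1096 were in 1 library, 182 in at least 2, 58 in at least 4 and 19 in all 6. With unbaited ends allowed to lie up to 5 kb apart, 785 had no partner in another library. Loops whose 2 anchors each lay within 500 kb were joined into locus pairs, a grouping made after the lists had been seen. Of the 659 locus pairs, 580 occurred in 1 library, 29 in at least 4 and 11 in all 6. These 29 held 770 listings, or 52.1% of all extreme loops, and 2 of them alone held 510 listings (34.5%). The 20 baits with the most extreme loops carried 609 listings (41.2%), while 601 baits had 1 listing each.

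Set against the bait-to-unbaited loops of 1 to 10 Mb in the same libraries, extreme loops had higher scores, fewer genes at the far end, and more often shared a bait. The median score was 7.09 ± 0.87 for extreme loops and 6.24 ± 0.06 for loops of 1 to 10 Mb (SD over 6 libraries), higher in 6 of 6 libraries, with adjusted p = 0.0391 by an exact permutation of the signs of the 6 differences. The first Brg1KD library had the largest gap, 8.87 against 6.22. The score is the authors' own, the tool that made it is not named in the sources used here, and no list holds a score below 5. The unbaited end of an extreme loop had 3.41 ± 0.32 protein-coding genes within 100 kb, and that of a 1 to 10 Mb loop 5.27 ± 0.42 (SD over 6 libraries), lower in 6 of 6 libraries (adjusted p = 0.0391, exact sign permutation over the n = 6 libraries). Of extreme loops, 4.82% ± 1.79 had an unbaited end within 5 kb of an unbaited end of an interchromosomal loop of that library. The share was 11.6% ± 1.98 for 1 to 10 Mb loops (SD over 6 libraries). It was lower for extreme loops in 6 of 6 libraries, with the same adjusted exact p of 0.0391. With identical ends the shares were 2.23% for extreme loops and 8.05% for 1 to 10 Mb loops. Of extreme loops 38.1% ± 4.16 sat on a bait with at least 3 of them in that library, against 27.3% ± 3.58 of 1 to 10 Mb loops, again in 6 of 6 libraries with an adjusted exact p of 0.0391. An adjusted p is over the 5 measures, and the smallest unadjusted p that 6 libraries allow is 0.03125.

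The share listed by another library within 5 kb was 49.3% ± 9.43 for extreme loops and 47.5% ± 4.04 for 1 to 10 Mb loops, a difference of 1.87 percentage points in which 3 of 6 libraries were higher (exact p = 0.531). That share rested on few loci. Without the 20 baits with the most extreme loops the share for extreme loops was 20.5%, lower than the 47.5% of the 1 to 10 Mb class in 6 of 6 libraries, the median score was 6.12 and the share on baits with at least 3 extreme loops was 2.56%. Without the chromosome 6 and chromosome 1 locus pairs the 3 values were 29.5%, 6.38 and 10.1%, and neither difference in score passed the test (adjusted exact p = 0.273 without the baits and 0.352 without the pairs). Sharing of baits turned round in both cases. It lay below the 27.2% (without the baits) and 27.3% (without the pairs) of 1 to 10 Mb loops, and was higher in 0 of 6 libraries. The baits and pairs left out were picked for their many listings, so part of these drops follows from the choice itself. Genes near the unbaited end and sharing with interchromosomal loops kept their direction and their side of the threshold in both cases.

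**Figure D2:**
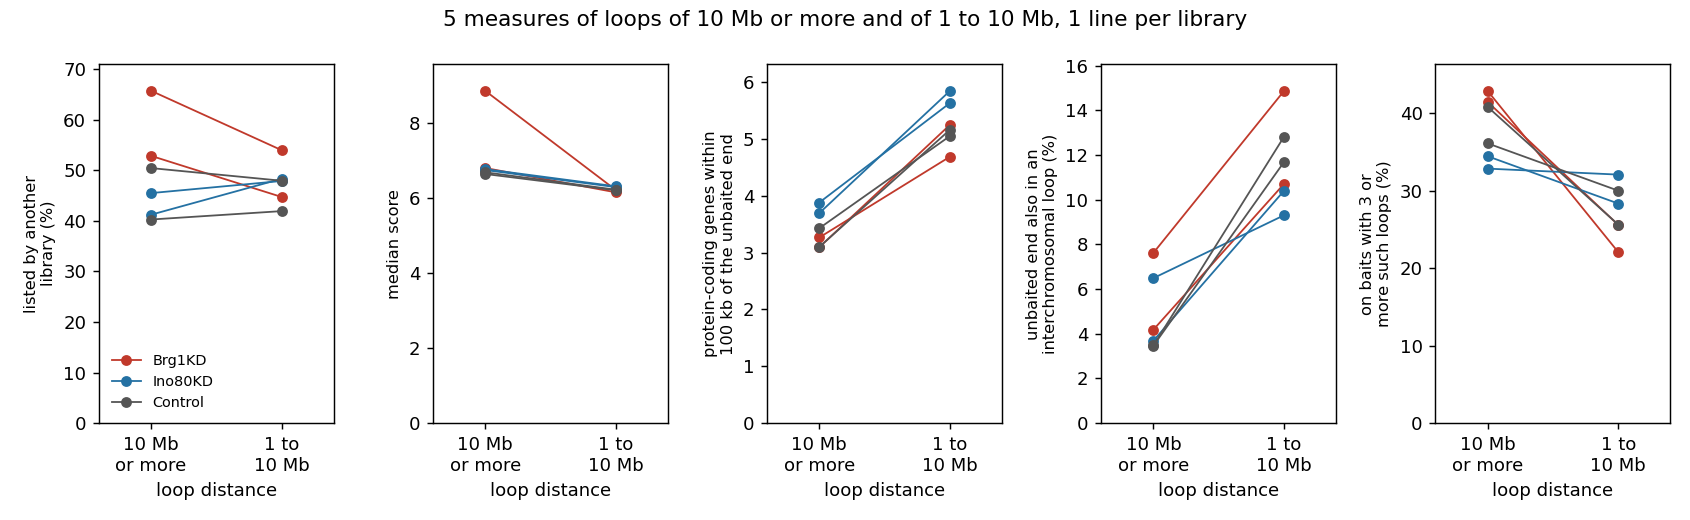
Each panel sets loops of 10 Mb or more (left) against loops of 1 to 10 Mb (right) for 1 measure named on its vertical axis, with 1 line per library coloured by group. Median score and sharing of baits are higher at 10 Mb or more in all 6 libraries, nearby genes and sharing with interchromosomal loops are lower, and the share listed by another library goes both ways.

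The locus pair with the most listings lay on chromosome 6, with a median span of 16.5 Mb. It joined a stretch around Il12rb2 (chr6:66840001-67360000) to a stretch around Cd207 and Clec4f (chr6:83580001-84180000). Il12rb2 encodes the signalling subunit of the interleukin-12 receptor, Cd207 the Langerhans cell lectin langerin, and Clec4f a C-type lectin of liver macrophages. This locus pair held 270 listings of 119 distinct loops on 12 baits, with 22 and 56 in Brg1KD, 47 and 41 in Ino80KD, and 45 and 59 in Control. The ranges overlapped, and per 1000 intrachromosomal loops the values were 1.80 and 4.32 in Brg1KD, 3.20 and 2.91 in Ino80KD, and 2.94 and 4.10 in Control. The median loop of the pair ranked at the 97.0th percentile of the scores of its own list.

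The contact was listed from both sides. The bait at Cd207 (chr6:83677118-83678977) had 66 listings and the bait at Clec4f (chr6:83655448-83657307) 48, all to windows of the Il12rb2 stretch. The bait inside Il12rb2 (chr6:67338955-67340814) had 58 listings to windows of the other stretch. Neighbouring baits joined in: Atp6v1b1, a subunit of the vacuolar proton pump, with 34 listings, a bait with no named gene at chr6:67114553-67116412 with 17, and Ankrd53, an ankyrin repeat gene, with 13. Of the baits with an intrachromosomal loop in these stretches, 5 of 5 on the Il12rb2 side and 7 of 10 on the Cd207 side carried an extreme loop, and 8 further listings across all 6 libraries ran between baits of the 2 sides. Cd207, Clec4f and Il12rb2 had 0 interchromosomal loops in any library. The loop of the Il12rb2 bait to chr6:83580001-83600000 was in all 6 lists, with scores of 27.1 and 56.5 in Brg1KD, 86.3 and 70.1 in Ino80KD, and 28.2 and 28.2 in Control. The loop of the Cd207 bait to chr6:67320001-67338954, inside Il12rb2, was also in all 6, with scores of 27.4 and 30.4 in Brg1KD, 27.4 and 26.8 in Ino80KD, and 50.5 and 55.4 in Control. Both loops stood at or above the 99.78th percentile of scores in every list. Scores were compared only within a library, so the sizes of these scores are no comparison of the groups.

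Listings on chromosome 6 were densest at the facing edges of the 2 stretches. Counting in steps of 100 kb from 67360000 downward, baits of the Cd207 side had 71, 50, 30, 13, 14 and 1 listings, and none of their windows in the pair lay beyond 67360000. Counting upward from 83580001, baits of the Il12rb2 side had 52, 32, 3, 1, 1 and 2 listings, and none of their windows lay below 83580001. The edges were read from these same listings, so they are a description.

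**Figure D3:**
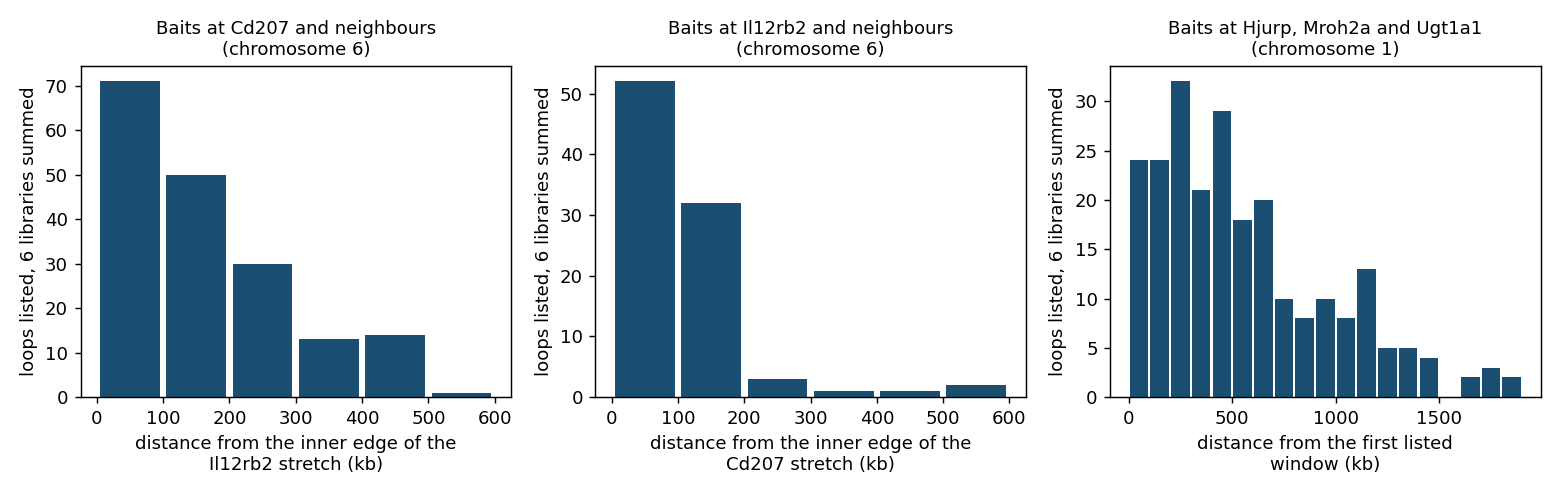
Listed loops summed over the 6 libraries (vertical axis) in 100 kb steps from an edge of the contacted stretch (horizontal axis, kb), for the 2 sides of the chromosome 6 locus pair and for the chromosome 1 locus pair. On chromosome 6 the counts are highest in the step next to the edge (71 and 52), and on chromosome 1 they spread over more than 1000 kb.

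The second large locus pair joined 5 baits within 66.8 kb at Ugt1a1, Mroh2a and Hjurp (chr1:88211839-88278626) to the start of the assembled sequence of chromosome 1 (chr1:3000001-4900000), over a median of 84.8 Mb. Hjurp encodes the chaperone that deposits the centromeric histone CENP-A, Ugt1a1 the enzyme that conjugates bilirubin, and Mroh2a a HEAT repeat protein. The pair held 240 listings of 166 distinct loops, with 15 and 48 in Brg1KD, 30 and 42 in Ino80KD, and 32 and 73 in Control. The groups overlapped again, with 1.22 and 3.70 per 1000 intrachromosomal loops in Brg1KD, 2.04 and 2.98 in Ino80KD, and 2.09 and 5.07 in Control. Its shape differed from that on chromosome 6. The windows were spread over Xkr4, Rp1 and the intervals between them, with 24, 24, 32, 21 and 29 listings in the first 5 steps of 100 kb and still 13 between 1100 and 1200 kb. No loop of this pair was listed with identical ends by more than 4 libraries, and the median rank of the scores was at the 69.6th percentile.

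Within the pair the 3 Hjurp baits had 83, 50 and 23 listings, Mroh2a 61 and Ugt1a1 21. The same baits also had interchromosomal loops: 63, 20 and 22 on the Hjurp baits, 40 on Mroh2a and 37 on Ugt1a1. Below 10 Mb the 5 baits had from 1 to 6 loops each. In the opposite direction, 2 of the 7 baits in the chromosome 1 start carried a loop to the Hjurp stretch, Sox17 (an endoderm transcription factor) and Tcea1 (a transcription elongation factor), with 1 listing each. Of the 5 longest loops seen in at least 2 libraries, 4 were of Hjurp baits in this pair, at 85.2 to 85.3 Mb. The longest was a loop of 94.1 Mb from Ifitm2, an interferon-induced membrane protein, to a chromosome 7 window holding Gtf2h1 and 2 pseudogenes, listed in the second Brg1KD library (6.73), both Ino80KD libraries (11.4 and 16.8) and the first Control library (6.23).

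Beyond these 2 locus pairs, the recurrent extreme loops were mostly contacts between a bait and a few adjacent windows. Tjap1, a tight junction associated protein on chromosome 17 (chr17:46282287-46284146), had 25 listings to windows at Wtap, a subunit of the m6A RNA methylation complex, and at Acat2 and Pnldc1, over 33.3 Mb. The loop from Tjap1 to chr17:12961492-12980000 was in all 6 lists, with scores of 26.0 and 27.1 in Brg1KD, 27.1 and 104.5 in Ino80KD, and 26.0 and 27.1 in Control. The bait shared by Kars (lysyl-tRNA synthetase) and Terf2ip (the shelterin protein Rap1) had 18 listings to chr8:36200001-36360000, over 75.7 Mb. Its loop to chr8:36320001-36340000 had scores of 26.1 and 51.5 in Brg1KD, 94.7 and 26.7 in Ino80KD, and 26.7 and 26.1 in Control. Hnrnpk, an RNA-binding protein, contacted chr13:91260001-91280000, which holds Gm4130, over 32.9 Mb, with scores of 16.4 and 53.5 in Brg1KD, 35.7 and 41.8 in Ino80KD, and 19.9 and 43.1 in Control. These 3 loops were present in each of the 6 lists at or above the 99.3th percentile of scores. Here too scores can be read only within a library, and differences in score between groups were not tested.

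Recurrent extreme loops outside the chromosome 6 and chromosome 1 pairs often had a pseudogene at an end. Of the 122 distinct loops in the 27 such pairs seen in at least 4 libraries, 50.8% had a RefSeq pseudogene in the unbaited window or within 2 kb of the bait, and 18 of the 27 pairs had at least 1 such loop. The share was 25.0% of 104 loops in pairs of 2 or 3 libraries, 12% of 585 loops in pairs of 1 library and 13.7% in the chromosome 6 and chromosome 1 pairs. Over all 1096 distinct extreme loops it was 18.0%, close to the 18.9% of the 3923 distinct loops of 1 to 10 Mb. Eif4a3l1, a gene of the Eif4a3 family on chromosome 6, met the window of the pseudogene Eif4a3l2 over 19.8 Mb in all 6 lists, with scores of 39.4 and 27.1 in Brg1KD, 39.6 and 26.7 in Ino80KD, and 46.7 and 26.7 in Control. On chromosome 11 the pseudogene Gm6685 (16 listings) and the bait shared by Cyb5d1 and Naa38, a subunit of an N-terminal acetyltransferase (12 listings), contacted each other's surroundings over a median of 41 Mb. Bait-to-bait loops between them were listed too, and stand outside the counts. Gene names alone gave another picture: 12 of the 1096 distinct extreme loops (1.09%) had genes with a shared name stem at both ends, such as Bcl2a, Tdg and Prl, against 369 of 3923 (9.41%) at 1 to 10 Mb.

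On chromosome 8, several locus pairs started from a region with the beta-defensin gene Defb33 (chr8:19681148-20903093), where other baits are named Gm15319, Gm20946, Gm21119 and 4930467E23Rik. The pair with the most listings led to a region with the zinc finger genes Zfp868 and Zfp964 (chr8:69299656-69660002, 35 listings). The window of Fcho1, an endocytosis protein, and its surroundings were reached in a pair of 15 listings from Gm15319, Gm20946 and Gm21119 and in another of 4 listings from 4930467E23Rik. A RefSeq promoter was present at both ends of 72 distinct extreme loops, and in 5 of them (6.94%) the promoters aligned over at least 100 bases with at least 75% identity. At 1 to 10 Mb this held for 5 of 275 loops (1.82%). In 3 of the 5 the far promoter was that of Gm7697, inside the window chr8:69520001-69540000, and the other 2 joined Gm1979 to Gm21190 and Gm21671 to Gm21083 on chromosome 5. The aligned stretches of Gm15319 and Gm7697 are printed because they show how alike 2 ends of an extreme loop can be. Capitals mark bases that differ or are present in only 1 of them.
Gm15319 (promoter at chr8:20363153-20363452, minus strand): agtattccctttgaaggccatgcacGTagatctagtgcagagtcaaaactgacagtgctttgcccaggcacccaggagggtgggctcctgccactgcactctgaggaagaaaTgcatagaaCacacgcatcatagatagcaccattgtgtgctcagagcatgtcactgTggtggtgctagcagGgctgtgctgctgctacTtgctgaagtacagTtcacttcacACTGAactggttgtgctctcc
Gm7697 (promoter at chr8:69522872-69523171, minus strand): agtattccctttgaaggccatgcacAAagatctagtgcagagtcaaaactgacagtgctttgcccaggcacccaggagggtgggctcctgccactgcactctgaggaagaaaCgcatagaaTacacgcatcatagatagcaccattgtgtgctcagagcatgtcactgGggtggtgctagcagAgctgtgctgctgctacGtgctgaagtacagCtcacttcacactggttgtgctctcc
The stretches aligned over 240 bases with 96.7% identity. The Gm15319 bait reached that window over 49.2 Mb in the first Brg1KD library (score 9.5), and whether reads from such copies were told apart in the authors' mapping was not tested.

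Developmental genes formed a further group of extreme loops, with loops that mostly occurred in 1 library. Those with a Hox gene on the bait were more often listed in Ino80KD libraries. Neither baits of other developmental regulators nor developmental genes at the unbaited end set the groups apart. Hox baits, which carry the homeobox genes of body axis patterning, had 13 extreme loops, with 0 and 0 in Brg1KD, 5 and 7 in Ino80KD, and 1 and 0 in Control. The Ino80KD values lay above all others. Hox baits made up 0.879% of extreme loops and 0.288% of loops of 1 to 10 Mb. At 1 to 10 Mb they had 1 and 1 loops in Brg1KD, 4 and 2 in Ino80KD, and 4 and 3 in Control, so Ino80KD did not stand above Control there. Over all distances the groups overlapped, with 5.88 and 6.17 per 1000 intrachromosomal loops in Brg1KD, 6.81 and 5.81 in Ino80KD, and 5.74 and 5.63 in Control. Baits of other developmental regulators had 11 extreme loops, with 0 and 1 in Brg1KD, 5 and 2 in Ino80KD, and 0 and 3 in Control. There the groups overlapped, and the share of extreme loops (0.744%) was below that at 1 to 10 Mb (1.97%). Extreme loops with a Hox, Evx, Vax or developmental regulator gene within 20 kb of the unbaited end, whatever the bait, numbered 2 and 8 in Brg1KD, 12 and 9 in Ino80KD, and 10 and 5 in Control, and these groups overlapped too.

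In the clearest case, 6 baits of the HoxA cluster and the bait of Vax2, a homeobox gene of the ventral eye, met each other across 31.5 Mb of chromosome 6. Baits at Hoxa2, Hoxa6, Hoxa10 and Hoxa11 reached chr6:83700001-83710143 beside Vax2, Hoxa3 and Hoxa4 reached the next windows, and the Vax2 bait reached chr6:52246931-52260000 by Hoxa11 and Hoxa13. These 9 listings were 0 and 0 in Brg1KD, 3 and 3 in Ino80KD, and 2 and 1 in Control, with scores from 6.13 to 10.8. The 3 groups did not overlap in this pooled count, at no more than 3 listings a library. These loci were picked after their values were seen, and no share of other locus pairs that separate the groups stands beside this count. The baits of the 2 ends also differed. The loop of the Vax2 bait was listed in both Control libraries (scores 6.13 and 6.44) and in no other list. All Ino80KD listings came from HoxA baits, which had 1 listing in Control (Hoxa6, first library, score 6.71). On chromosome 2 a window at Lmx1b, a LIM homeobox gene of limb and kidney development, was reached by Hoxd10 (41.1 Mb, first Ino80KD library), and a neighbouring window by Hoxd13 (41 Mb) and by Dlx2 (37.9 Mb, score 15.9) in the second. Evx2, next to the HoxD cluster, reached chr2:116540001-116560000 over 41.9 Mb with scores of 8.83 and 6.96 in the Ino80KD libraries and in no other list. Hoxd13 reached that window in the second Ino80KD library (score 14.2).

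On chromosome 11, Hoxb5 contacted a window at Cbx2 and Cbx8, which encode chromobox subunits of Polycomb repressive complex 1, over 22.7 Mb in the second Ino80KD library (score 5.4). Lhx2 reached the window of Bmi1, another subunit of that complex, over 19.7 Mb. Further loops of this kind joined Zic1 to Foxb1 (21.6 Mb), Nkx2-1 to Osr1 (47.0 Mb) and Lhx5 to Hmx1 (85.0 Mb), each in 1 Ino80KD library. These are transcription factor genes of the nervous system, forebrain and thyroid, mesoderm and eye. A loop from Tfap2b to Sox17 (14.7 Mb) was listed only in the first Control library (score 6.27). Between baits, and so outside the rule, the second Ino80KD library also listed Hoxd10 to Meis2 (41.4 Mb) and Pax6 to Foxa2 (42.4 Mb).

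For a count over such loops, a list of developmental transcription factor, signalling and Polycomb gene families was widened after these loops had been seen, so its counts have no test and are no independent evidence. Loops with a listed gene on the bait and another within 20 kb of the unbaited end numbered 0 and 0 in Brg1KD, 8 and 8 in Ino80KD, and 3 and 1 in Control. Only 2 of the 18 distinct loops, those of Hoxa6 and Vax2, were in more than 1 library. The same order held in batch 1 (0, 8 and 3) and, for the depletions, in batch 3 (0 and 8). At 1 to 10 Mb the same list gave 1 and 1 loops in Brg1KD, 32 and 32 in Ino80KD, and 16 and 7 in Control. Over all distances baits of these genes had 20.9 and 20.0 loops per 1000 in Brg1KD, 31.7 and 31.0 in Ino80KD, and 26.6 and 24.3 in Control. The groups did not overlap in any of these 3 counts. Extreme loops with a listed gene on the bait and none near the unbaited end numbered 0 and 2 in Brg1KD, 7 and 6 in Ino80KD, and 1 and 7 in Control, and there the groups overlapped. Of 24 baits of Hox, Evx, Vax or developmental regulator genes, 17 had a RefSeq promoter, as in the Hoxa10 and Evx2 sequences above. Taking the promoter with the most CG on each bait, these held a median of 21 CG dinucleotides, from 7 to 41.

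**Figure D4:**
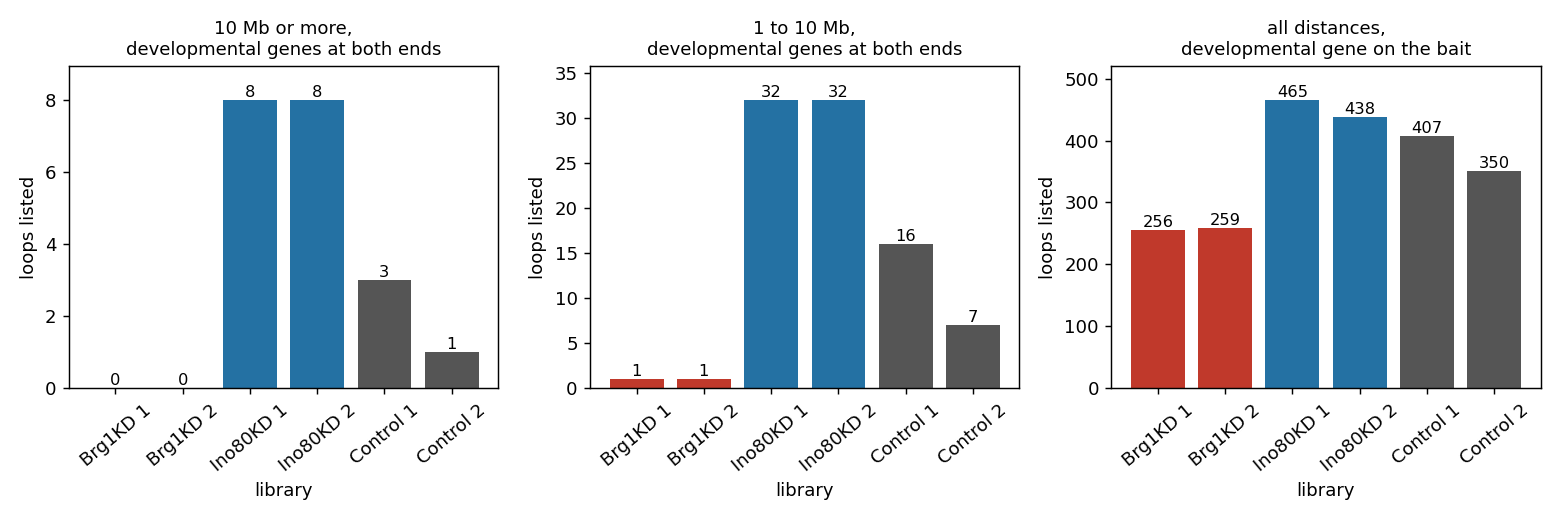
Loops listed per library (vertical axis) with developmental genes at both ends at 10 Mb or more and at 1 to 10 Mb, and with a developmental gene on the bait at all distances (the vertical scale differs between panels). Ino80KD libraries are highest in each panel (8 and 8, 32 and 32, 465 and 438) and Brg1KD libraries lowest.

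Other gene families were unevenly represented among extreme loops. Replication-dependent histone genes had 2 listings (0.135% of extreme loops, against 7.34% of 1 to 10 Mb loops), zinc finger genes 29 (1.96% against 9.03%) and olfactory receptors 32 (2.16% against 6.21%). Pluripotency genes had 0 listings, where the 1 to 10 Mb class had 0.173%. Baits with a ribosomal protein symbol had 19 listings, with 0 and 4 in Brg1KD, 1 and 4 in Ino80KD, and 4 and 6 in Control, or 1.28% against 0.326%. These symbols include pseudogenes such as Rpl10-ps3 and Rps18-ps4, so the share is not one of ribosomal protein genes alone. Such pseudogenes also count among the ribosomal pseudogenes below. Mitochondrial ribosome and oxidative phosphorylation genes had 8, keratins 3, serpins 2 and vomeronasal receptors 1. The bait lay at a pseudogene in 5.75% of extreme loops and 2.15% of 1 to 10 Mb loops, and at a predicted gene or ribosomal pseudogene in 8.52% and 5.62%. The chromosome 6 and chromosome 1 pairs make up much of the listings, which lowers the share of every family absent from them. Among distinct extreme loops outside these pairs, olfactory receptors made up 3.95%, zinc finger genes 2.59%, histone genes 0.247%, Hox genes 1.48%, developmental regulators 1.23% and ribosomal protein symbols 1.48%. These shares carry no test.

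Few extreme loops separated the groups. Of the 1096 distinct loops, 7 were listed with identical ends in both Brg1KD libraries and in neither Control library (0.639%, where 1.51% of the 47403 distinct bait-to-unbaited intrachromosomal loops of all lengths were), and 16 the other way round (1.46%, against 2.7%). In both Ino80KD libraries and in neither Control library there were 5 (0.456%, against 1.95%), and 17 the other way round (1.55%, against 2.23%). Between the depletions, 10 were in both Ino80KD libraries and in neither Brg1KD library (0.912%, against 2.76%), and 12 the other way round (1.09%, against 1.66%). All 6 shares lay below those for all lengths. A loop had to be in at least 2 libraries to be counted, and 914 of the 1096 were in 1 library. The lower shares are therefore no result about the groups. When a listing within 5 kb also counted as present in the other group, the counts against Control were 2 for Brg1KD and 5 for Ino80KD, with 10 the other way round for each depletion, and between the depletions 8 for Ino80KD and 7 for Brg1KD. No share over all lengths stands beside these counts. The 5 of Ino80KD were at Evx2, at Mir9-3hg, the host transcript of a neural microRNA (30.1 Mb), at Prl7c1, a placental prolactin (14.9 Mb), at Raet1e, a ligand of the NKG2D receptor (14.8 Mb), and at the unnamed chromosome 6 bait. Among the loops in both Control and both Ino80KD libraries and in neither Brg1KD library, Gm20946 to Fcho1 had scores of 26.2 and 17.3 in Ino80KD and 23.0 and 30.9 in Control. Piwil4, a piRNA pathway protein, met the window of Ube2q2 over 40.5 Mb with 14.1 and 9.59 in Ino80KD and 22.7 and 27.0 in Control. At the same Fcho1 window the nearby bait Gm15319 differed from Gm20946. Its loop had scores of 8.2 and 10.4 in Brg1KD and 5.18 and 17.9 in Control, and was in neither Ino80KD list. Listed in both Brg1KD libraries and in neither Ino80KD library was a loop on chromosome X of the bait shared by Itgb1bp2 and Nono, a nuclear RNA-binding protein, over 20.9 Mb with 8.87 and 11.8 in Brg1KD and 21.3 in the first Control library. A loop missing from a list had a score under 5 there or was not tested by the caller, and these cannot be told apart.

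The authors' deposited tables compare contact signal of a bait with a wider region, so 1 table entry can hold several extreme loops and entries of a bait overlap. A log2 fold change above 0 was taken as higher after depletion, since 81.0% of loops listed by both Brg1KD and neither Control library were above 0 in the authors' deposited table, against 18.3% of those listed by both Control and neither Brg1KD library. For Ino80KD these shares in the authors' deposited table were 84.7% and 18.1%. For Brg1KD, 193 entries on 63 baits held an extreme loop, with a median log2 fold change of -0.04 in the authors' deposited table, against -0.01 over all 33243 entries. Of the 193, 0 passed an unadjusted p of 0.05 in the authors' deposited table, where 1.2% of all entries did (0.373% higher and 0.827% lower). In the authors' deposited table the 193 had a median signal of 17.0 and a median standard error of 0.61, against 59.5 and 0.33 over all entries. For Ino80KD, 213 entries on 64 baits had, in the authors' deposited table, a median of -0.21, against 0.00 over all 34774 entries, and 149 of them (70.0%, against 49.6% of all entries) were below 0. Of the 213, the authors' deposited table likewise gave 0 with an unadjusted p below 0.05, where 1.29% of all entries did (0.912% higher and 0.382% lower). In the authors' deposited table the 213 had a median signal of 15.9 and a median standard error of 0.62, against 62.7 and 0.33 over all entries. With signal this low and errors this large, neither count of 0 shows that extreme loops were unchanged. With adjusted p-values the authors' deposited tables called 0% of entries in both comparisons.

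By median, the Ino80KD values were lowest at the chromosome 1 pair. In the authors' deposited table, 48 of the 55 entries of the chromosome 1 pair and 57 of the 82 entries of the chromosome 6 pair were below 0, with medians of -0.32 and -0.17, and the remaining 76 entries had a median of -0.12. For Brg1KD the authors' deposited table gave medians of 0.09 on chromosome 1, -0.03 on chromosome 6 and -0.10 over the remaining 73 entries. Of the remaining entries in the authors' deposited tables, 57.5% were below 0 for Brg1KD and 57.9% for Ino80KD. On the Cd207 bait 17 of 18 entries of the authors' deposited table were below 0 for Ino80KD (from -0.53 to 0.03), and 8 of 20 for Brg1KD. Both tables share the Control libraries, of which the second listed the most loops in both pairs, and overlapping entries of 5 and 11 baits are not independent measurements. The smallest p for Ino80KD was at the Vax2 bait and its Il12rb2 region, with a log2 fold change of -1.63 ± 0.83 (SE, p = 0.0505, adjusted p = 1.00) in the authors' deposited table. The smallest for Brg1KD was at Tjap1 with -0.63 ± 0.35 (SE, p = 0.0711, adjusted p = 1.00) in the authors' deposited table. For the developmental loops the authors' deposited table held Hoxa10 to the region with Vax2 at 1.04 ± 1.00, Hoxa11 to the same region at 0.85 ± 1.10 and Evx2 at 0.18 ± 1.13 (SE) for Ino80KD, each about the size of its standard error or smaller. The recurrent loops of Kars and Terf2ip lay between -0.13 and -0.03 for Brg1KD in the authors' deposited table.

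**Figure D5:**
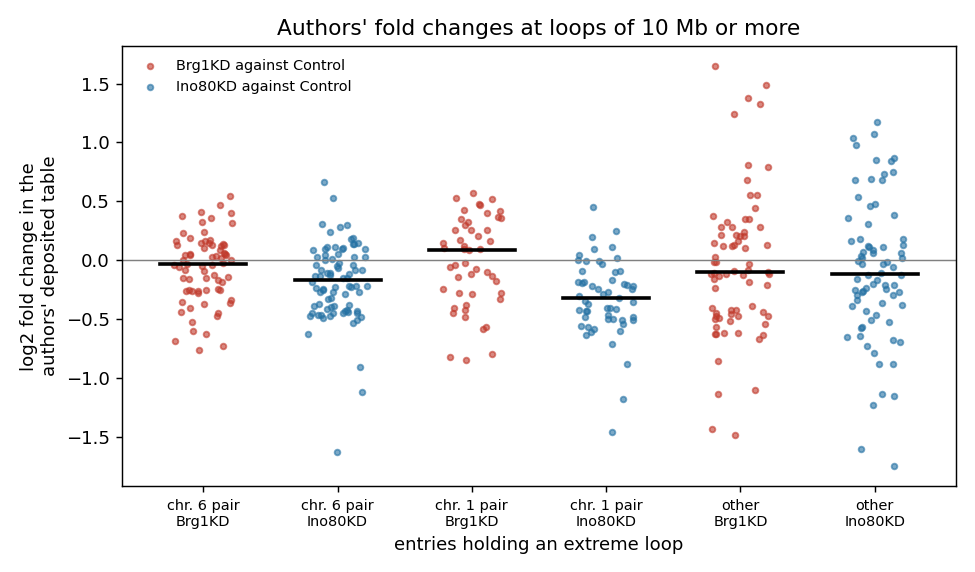
Log2 fold change in the authors' deposited tables (vertical axis) of every entry that holds an extreme loop, for the chromosome 6 pair, the chromosome 1 pair and the others (horizontal axis), with Brg1KD and Ino80KD each against Control; black lines are medians. Ino80KD entries of the chromosome 1 pair have a median of -0.32, and the entries spread on both sides of 0 in each column.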

How the data were processed

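Promoter-capture Micro-C loop lists of 6 libraries were used as deposited. Per the labels' protocols, chromatin was digested with micrococcal nuclease and promoters were enriched with a capture kit, and the submitters' processing notes name the build mm10 and bedtools. Each list gives a bait, an other end and a score per loop, and the deposited score is at least 5 throughout (the tool that made it is not named in the sources used here). Per the file headers, the authors' deposited comparison tables give a mean signal, a log2 fold change with its standard error, and p-values for each depletion against Control. These tables hold no counts per library, so no count model was fitted, and their values are described only.

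Extreme loops were taken with Python 3.11.15 and pandas 2.3.3. Libraries were compared by exact permutation, and the 5 measures by exact sign permutation within library, with Benjamini-Hochberg adjustment, after a test on simulated data. Baits were named from RefSeq genes (GRCm38.p6, an mm10-compatible build) that begin or end on the bait or, failing that, no more than 2 kb away, or else span it. Named loops are those of the 20 baits with most extreme loops, those in at least 4 libraries, the longest in at least 2, and those that separate groups; developmental loops, chromosome 8 loops and the examples on gene families were named after their values were seen. Members, lists and tests were chosen with earlier results of these data known. The first replicates of all groups shared batch 1, and both replicate numbers marked a shared batch only for Ino80KD against Brg1KD.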

Additional observations from a re-analysis of the deposited data

How the results depend on the processing

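Differences between groups in extreme loops per 1000 intrachromosomal loops had no call to lose, and several turned direction. Leaving out 1 library gave from -12.0 to -0.24 for Brg1KD against Control, from -8.46 to 2.58 for Ino80KD against Control and from -2.69 to 9.03 for Ino80KD against Brg1KD. The sign turned without the second Control library and without the first Brg1KD library. Within batch 1 Ino80KD against Control was 1.62, and within batch 3 Ino80KD against Brg1KD was -1.73. With the replicate block, the mean of differences between libraries of the same number, the values were the same (-6.10, -2.94 and 3.17), and the smallest p it allows is 0.5. The following alternatives were chosen after seeing the data: per 1000 loops of 1 to 10 Mb in place of all intrachromosomal loops, Brg1KD against Control was 14.6 and Ino80KD against Brg1KD -43.8, and with loops listed by another library only, Ino80KD against Brg1KD was -0.57. Leaving out the chromosome 6 and chromosome 1 pairs was also chosen then, as were keeping only these pairs, only loops of no other library, and all RefSeq genes.

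At 20 Mb or more, the differences from 1 to 10 Mb were -2.03 percentage points for the share listed by another library, 0.398 for the score (adjusted exact p = 0.117) and 5.24 points for the share on shared baits (adjusted exact p = 0.312). Without the 20 baits the differences in share listed by another library, score and share on shared baits were -27.0, -0.12 and -24.7, and without the 2 locus pairs -17.9, 0.14 and -17.2. With unbaited ends within 20 kb the first was -0.56. Leaving out 1 library gave from -0.10 to 3.67 for the share listed by another library, from 0.49 to 0.94 for the score, from -1.95 to -1.80 for genes, from -7.61 to -6.30 for sharing with interchromosomal loops and from 8.81 to 12.8 for shared baits. With 5 libraries no p can fall below 0.0625, so the loss of the 4 calls there says nothing about stability. The cause of these changes was not tested. Lists cut at a score of 5 and without read counts set the limit of what can be called absent.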
